A study of Mus musculus with 6 samples.

Results

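Neutrophil granule and maturation genes were examined in radiated and non-radiated mouse femur as a set of 32 genes taken by name from the deposited table of 43346 genes. All 32 were found, and all 32 were among the 18757 genes that passed the filter on low counts. The lowest count of any of them in any library was 254, for Stfa2l1 in radiated library 1. The mice were of the inbred strain C57BL/6 and 4 months old. The radiated group (3 libraries) came from right femurs, in which 5 mm of the distal metaphysis, the flared, marrow-holding end of the bone shaft, had received a single image-guided dose of 24 Gy at 6.6 Gy per minute. The non-radiated group (3 libraries) came from the same region of left femurs, so both legs belonged to treated animals and neither group came from an untreated mouse. Both were taken on day 21, before the bone loss that was seen later, stripped of muscle and homogenized as a piece, without a named step that removed the marrow. The libraries are therefore bulk mixtures, in which fewer cells of a type and less RNA per cell cannot be told apart. The labels number the libraries 1 to 3 in each group without saying that they came from separate mice, so p-values measure the spread between these samples.

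Neutrophils are made in the marrow in steps, and each step fills a different kind of granule. Promyelocytes fill azurophil granules with myeloperoxidase and serine proteases. Myelocytes and metamyelocytes fill specific granules with lactoferrin, cathelicidin and other antimicrobial proteins, and the maturing cell then gains surface receptors for chemoattractants. Early and late genes were compared to see whether both ends of this sequence differed alike between the groups. The 32 genes were placed in 6 role groups: azurophil (early, 5 genes), transcription factors (2), specific granule (middle, 12), calprotectin (2), mature (late, 7), and oxidase with lysozyme (4). The specific granule group also holds genes for surface proteins, such as the antigen gene Ly6g and the integrin subunit gene Itgb2l. Its counts are therefore not of granule proteins alone.

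Promoter sequences are shown for 4 early genes, 2 middle genes and 1 late gene, to show the letters whose counts by role group follow. RefSeq promoters of build GRCm38.p6 were matched for 29 of the 32 genes (not for Cebpe, Hp and Ncf4), and the 250 bases before each start were searched on both strands. Capitals mark the PU.1 pattern AGGAAGT and the C/EBP pattern TTGCNNAA, read on either strand, and each sequence runs 5′ to 3′ in the direction of its gene. Each is shown from the first searched base up to the first exon annotated in GENCODE M21, so 0 to 203 of the 250 searched bases, which lie in annotated first exons, are left out.
Mpo, chr11:87793534-87793580, plus strand: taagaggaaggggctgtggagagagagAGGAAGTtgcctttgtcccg
Elane, chr10:79886062-79886246, plus strand: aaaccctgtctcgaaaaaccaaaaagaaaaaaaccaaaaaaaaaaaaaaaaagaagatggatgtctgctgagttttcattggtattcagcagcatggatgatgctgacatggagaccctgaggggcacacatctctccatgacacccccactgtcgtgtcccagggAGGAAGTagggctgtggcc
Prtn3, chr10:79879417-79879613, plus strand: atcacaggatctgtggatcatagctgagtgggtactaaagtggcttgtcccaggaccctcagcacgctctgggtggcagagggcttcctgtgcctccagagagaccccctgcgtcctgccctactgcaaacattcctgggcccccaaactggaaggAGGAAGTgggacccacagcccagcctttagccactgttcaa
Ctsg, chr14:56102575-56102824, minus strand: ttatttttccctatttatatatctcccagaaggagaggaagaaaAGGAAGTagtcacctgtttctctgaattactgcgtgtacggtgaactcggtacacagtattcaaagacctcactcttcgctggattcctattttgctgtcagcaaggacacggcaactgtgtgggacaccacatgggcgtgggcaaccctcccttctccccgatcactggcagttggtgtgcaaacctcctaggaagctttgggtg
Ltf, chr9:111019042-111019270, plus strand: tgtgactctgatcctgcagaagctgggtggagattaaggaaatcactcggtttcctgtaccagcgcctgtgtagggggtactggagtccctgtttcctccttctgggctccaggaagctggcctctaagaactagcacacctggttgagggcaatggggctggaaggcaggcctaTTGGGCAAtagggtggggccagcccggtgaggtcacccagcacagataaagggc
Ngp, chr9:110419558-110419746, plus strand: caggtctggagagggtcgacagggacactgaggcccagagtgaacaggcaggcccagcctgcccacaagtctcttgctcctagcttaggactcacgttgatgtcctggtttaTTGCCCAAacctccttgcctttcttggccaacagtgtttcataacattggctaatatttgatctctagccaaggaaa
Retnlg, chr16:48872358-48872607, plus strand: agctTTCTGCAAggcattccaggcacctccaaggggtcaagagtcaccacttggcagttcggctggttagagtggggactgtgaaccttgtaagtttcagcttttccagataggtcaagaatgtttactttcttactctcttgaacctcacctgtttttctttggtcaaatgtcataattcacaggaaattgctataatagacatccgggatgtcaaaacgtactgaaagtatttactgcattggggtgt

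The PU.1 pattern was in 4 of the 5 azurophil promoters (Mpo, Elane, Prtn3 and Ctsg), in 4 of 11 specific granule promoters and in 0 of 7 late promoters, against 7.69% of all 32851 promoters. The C/EBP pattern was in 0 of the 5 azurophil promoters, in 6 of 11 specific granule promoters (Ltf, Ngp, Lcn2, Fcnb, Ly6g and Anxa1) and in 1 of 7 late promoters (Retnlg), against 9.56% of all promoters. PU.1 is a transcription factor of the ETS family and C/EBP a family of them, both at work in the myeloid lineage. A match is a run of letters and not a measured binding site, and no test was made. Of 12 patterns searched, these were chosen for display after their counts were seen. Over all 29 promoters AGGAAGT was in 10, also those of S100a8 and Lyz2, and TTGCNNAA in 9, also those of Gfi1 and S100a9. The looser TTNNGNAA, which contains every TTGCNNAA match, was in 18 of 29 members' promoters against 36.8% of all. It was in 1 of 5 azurophil, 9 of 11 specific granule and 4 of 7 late promoters. GAGGAA, which can share letters with AGGAAGT, was in 15 against 23.3%. By the same role groups it was in 4 of 5, 7 of 11 and 3 of 7, so the absence of AGGAAGT from late promoters did not extend to it. The RUNX letters TGTGGT were in 6 promoters (14.045% of all), the MYB letters AACNG in 27 (74.2%) and AACTGNC in 6 (10.6%), the GFI1 letters AATCNNNG in 7 (28.2%) and AAATCA in 4 (12.4%), and TATAAA in 8 (12.4%). The palindrome TTGCGCAA and the GATA letters GATAAG were in 0 of the 29, against 0.164% and 6.55% of all.

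The libraries held 34034251 to 48708383 gene counts. Non-radiated library 2 stood apart, with 32.9% of its counts in the single row AY036118, against 0.321% to 5.61% in the other 5 libraries. Skeletal muscle markers, all 8 of them detected, summed to 142 to 285 CPM (counts scaled to a common library size, here by the trimmed mean of M-values, TMM) in the non-radiated libraries and to 643, 2020 and 166 CPM in radiated libraries 1, 2 and 3. Osteoblast markers were all detected, at a summed 4465 to 6775 CPM in non-radiated and 3336 to 4217 CPM in radiated libraries.

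The neutrophil genes were lower in radiated femur by a modest amount: 31 of the 32 had negative log2 fold changes with TMM scaling, and 26 of 32 when libraries were scaled by their totals alone. The median log2 fold change of the 32 was -0.31, against 0.00 over all genes tested. By edgeR's quasi-likelihood test 7 of the 32 were called lower (adjusted p under 0.05), where 3.24% of all genes tested were called lower. Those 7 were Ctsg, Ms4a3, Chil3, Retnlg, Mcemp1, Csf3r and Fpr2. None was called higher, where 4.56% of all genes were. At an unadjusted p under 0.05 there were 24 members, all lower, against 9.35% of all genes. DESeq2's Wald test called 24 lower and 0 higher, against 4.55% of all genes called lower. Under library totals alone 0 of the 32 were called, 0 had an unadjusted p under 0.05, and their median was -0.10, against 0.19 over all genes. Every radiated library was below every non-radiated library for 22 of the 32, against 11.5% of all genes tested. With the replicate number as a block edgeR called 13 members lower, against 3.39% of all genes. The members are abundant genes: of the 10569 tested genes at or above the level of the lowest member, Stfa2l1, 4.31% were called lower.

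Within the numbered pairs, 25 of the 32 were lower in radiated library 1 than in non-radiated library 1, 31 in pair 2 and 32 in pair 3. The median log2 ratio of the members was -0.09, -0.33 and -0.43 in pairs 1, 2 and 3. Non-radiated library 2, with its high AY036118, had the highest level of its group for 25 of the 32 members, and radiated library 3 the lowest of its group for 28. Without non-radiated library 2 the median log2 fold change was -0.26 and 4 members were called, against 1.99% of all genes called lower. Without radiated library 1 the median was -0.36, also with 4 called (1.71% of all genes). Without radiated library 3 the median was -0.22, with 5 called (2.26% of all genes). The 4 called in each of the 6 fits that left out a library were Ctsg, Ms4a3, Retnlg and Mcemp1. The plot of members by library shows this spread.

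**Figure D1:**
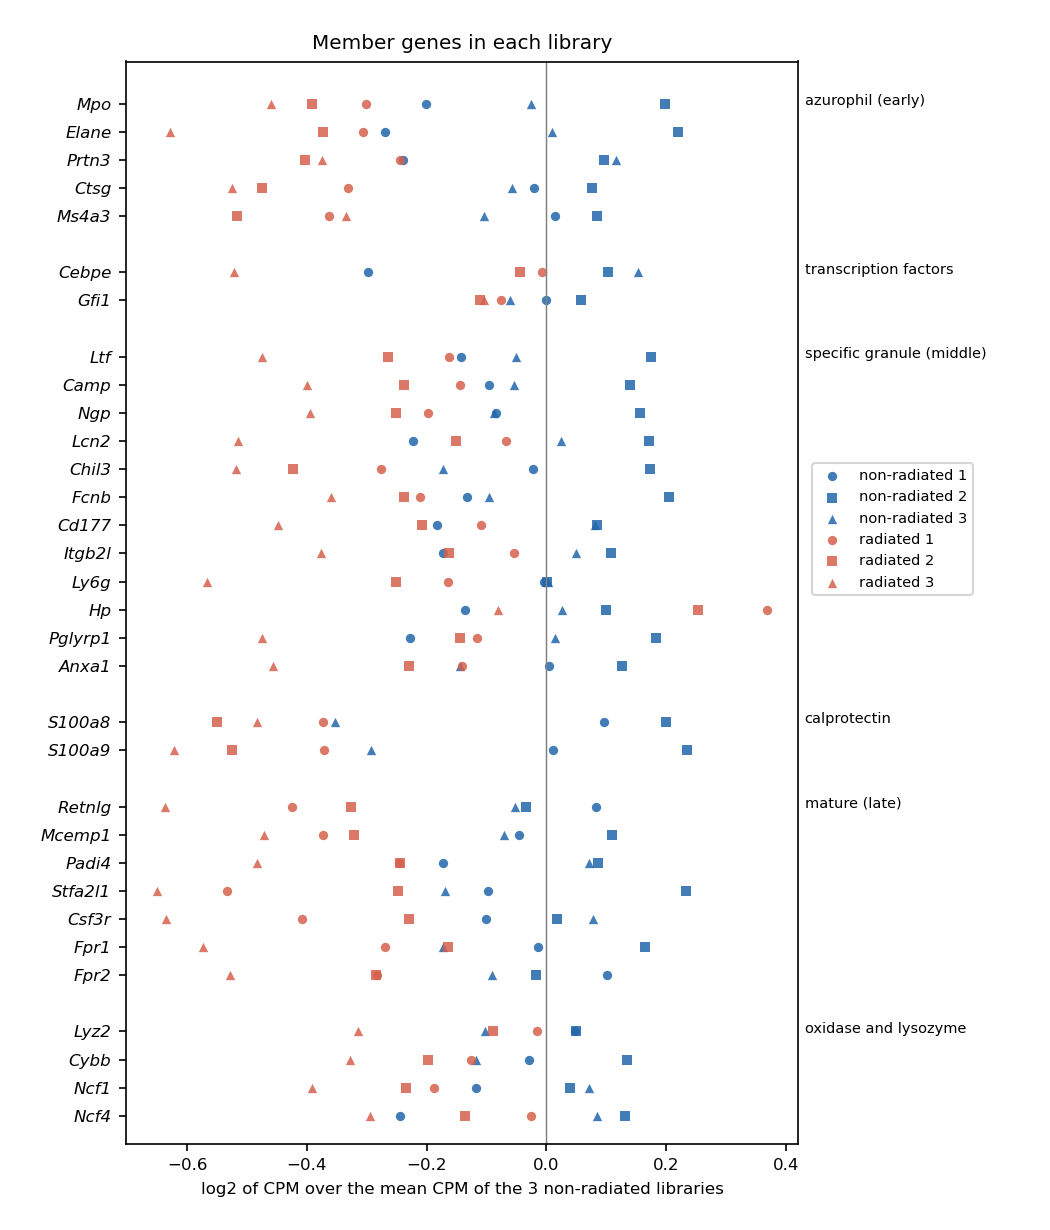
Each row is a member gene and each point a library; the horizontal axis is the log2 ratio of the TMM-scaled CPM to the mean of the 3 non-radiated libraries (blue non-radiated, red radiated, marker shape for the replicate number). Every red point lies left of every blue point for 22 of the 32 genes, and only Hp has its red points mostly to the right.

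Together the 32 genes held 2.42%, 1.88% and 2.18% of the non-radiated counts (libraries 1 to 3) and 2.09%, 2.03% and 1.81% of the radiated counts (libraries 1 to 3). These shares overlapped between the groups (2.16% ± 0.270 against 1.98% ± 0.150, mean ± SD, n = 3 each). The 95% Wilson interval of each was narrow, for example 1.875% to 1.884% in non-radiated library 2, and covers counting error only. When AY036118 and a second row, Gm26917, were left out of the totals, the non-radiated shares became 2.52%, 2.86% and 2.37% and the radiated shares 2.25%, 2.08% and 1.93%, without overlap. The levels of the 32 genes, per length, ran over a wide range. In the non-radiated libraries S100a9 and S100a8 were highest at 9538 and 7252 CPM per kilobase, followed by Ngp at 2572, Camp at 1973, Lyz2 at 1379 and Ltf at 1064. The transcription factors Gfi1 and Cebpe were lowest, at 6.66 and 14.6 CPM per kilobase.

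The 5 azurophil genes had a median log2 fold change of -0.40, and every radiated library was below every non-radiated one for all 5. Ctsg (ENSMUSG00000040314, chromosome 14, 56099881 to 56102574) encodes cathepsin G, a serine protease. Its level was 96.9, 104 and 94.5 CPM in the non-radiated libraries and 78.1, 70.7 and 68.3 CPM in the radiated libraries. The groups were well apart, at 98.3 ± 4.73 against 72.4 ± 5.11 CPM (mean ± SD, n = 3 each). The log2 fold change was -0.44, with SE 0.07 and adjusted p by edgeR 0.00380. Ms4a3 (ENSMUSG00000024681, chromosome 19, 11629496 to 11640851), a membrane protein gene used to mark granulocyte and monocyte progenitors, was at 72.8, 76.3 and 67.0 CPM without and 56.0, 50.3 and 57.1 CPM with radiation. It fell by 0.40 on the log2 scale (SE 0.07, adjusted p by edgeR 0.00890). Both calls held in 14 of 15 alternatives and were lost under library totals alone, at adjusted p 0.698 and 0.733.

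Mpo (ENSMUSG00000009350, chromosome 11, 87793581 to 87804413) encodes myeloperoxidase, which makes hypochlorous acid. It was at 718, 947 and 811 CPM in the non-radiated libraries and 670, 629 and 600.0 CPM in the radiated libraries, with non-radiated library 2 highest. Its log2 fold change was -0.38 (SE 0.10) and its adjusted p by edgeR of 0.0512 missed the threshold, while with the replicate block it was called (0.0475). The protease genes Elane (neutrophil elastase) and Prtn3 (proteinase 3) are neighbours on chromosome 10, at 79886312 to 79888216 and 79874476 to 79883174. Elane was at 180, 252 and 218 CPM without and 175, 167 and 140.0 CPM with radiation, log2 fold change -0.43, SE 0.12, adjusted p by edgeR 0.0683, and 0.0495 with the block. Non-radiated library 1 and radiated library 1 almost touched for both proteases. Prtn3 had a log2 fold change of -0.34 (SE 0.09, adjusted p by edgeR 0.0614), and it overlaps Lppr3 in the table.

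Cebpe and Gfi1 encode transcription factors required for granulocyte maturation, Gfi1 for its start and Cebpe for the specific granule stage. Cebpe was at 14.7, 19.5 and 20.2 CPM in the non-radiated libraries and 18.0, 17.6 and 12.6 CPM in the radiated libraries, which overlap. Gfi1 was at 20.7 to 22.5 CPM without and 20.01 to 20.5 CPM with radiation. Their log2 fold changes were -0.17 (SE 0.16, adjusted p by edgeR 0.595) and -0.10 (SE 0.07, adjusted p by edgeR 0.481), and both were positive under library totals alone. Neither reached an unadjusted p under 0.05 in edgeR, and DESeq2 called 0 of the 2.

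Of the 12 specific granule genes, 1 was called lower, 8 had an unadjusted p under 0.05, and the median log2 fold change was -0.26. The called gene was Chil3 (ENSMUSG00000040809, chromosome 3, 106147554 to 106167564), a chitinase-like protein of mouse myeloid cells. Its values were 734, 840.5 and 661 CPM in the non-radiated libraries and 615, 556 and 520.1 CPM in the radiated libraries, without overlap. It fell by 0.40 on the log2 scale (SE 0.10, adjusted p by edgeR 0.0398). The call was kept without non-radiated library 3 and lost when any other library was left out, at adjusted p 0.0545 to 0.108. Its transcript resembles that of Chil4 closely, so its count is uncertain.

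The 3 most abundant specific granule genes had fold changes of one size. Ltf, for the iron-binding protein lactoferrin, was at 2644, 3293 and 2816 CPM without and 2607, 2429 and 2100.3 CPM with radiation. Ngp, a neutrophil granule protein gene of the cystatin and cathelicidin superfamily, was at 2812, 3323 and 2806 CPM and at 2600.3, 2503 and 2266 CPM. Camp, the cathelicidin gene, was at 1107, 1301 and 1138 CPM and at 1069, 1002 and 896 CPM. None of the 3 overlapped between groups, but radiated library 1 lay close under the lowest non-radiated library for Ltf and Camp. For Ngp that gap was wider (2600.3 against 2806 CPM). Their log2 fold changes were -0.29, -0.28 and -0.26, with adjusted p by edgeR of 0.173, 0.140 and 0.140.

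Ly6g, the surface antigen of mouse neutrophils, was at 54.6, 54.7 and 54.8 CPM in the non-radiated libraries and 48.8, 46.0 and 36.9 CPM in the radiated libraries. All 3 radiated values were below, but they spread far more than the non-radiated ones, and the log2 fold change of -0.32 (SE 0.10) had an adjusted p by edgeR of 0.0794. Fcnb, Anxa1, Cd177, Pglyrp1, Lcn2 and Itgb2l had log2 fold changes from -0.27 to -0.19 and were not called (adjusted p by edgeR 0.113 to 0.354). Of these Anxa1, the gene of the anti-inflammatory protein annexin A1, was called with the replicate block (adjusted p 0.0494). Fcnb encodes ficolin B, Cd177 a surface glycoprotein of neutrophils, Pglyrp1 a peptidoglycan recognition protein, Lcn2 a protein that binds bacterial siderophores and Itgb2l an integrin subunit. Itgb2l was positive under library totals alone.

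Hp, which encodes the haemoglobin-binding protein haptoglobin, was the one member with a positive log2 fold change under TMM scaling (0.19, SE 0.11, adjusted p by edgeR 0.369). Its level was 255, 300.4 and 285 CPM in the non-radiated libraries and 362, 334 and 265 CPM in the radiated libraries. Radiated libraries 1 and 2 were above all non-radiated ones, and radiated library 3 was within their range. Haptoglobin is also made by fat cells. The 5 adipocyte markers, all called higher, summed to 23.9 to 27.0 CPM without radiation and to 141, 134 and 91.7 CPM in radiated libraries 1, 2 and 3, and their part in the Hp values was not tested.

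S100a8 and S100a9 encode the subunits of calprotectin, the main calcium- and zinc-binding protein of the neutrophil cytosol, and lie side by side on chromosome 3 (90669071 to 90670034 and 90692632 to 90695721). S100a9 was at 5017, 5856 and 4064 CPM in the non-radiated libraries and 3851, 3460 and 3235 CPM in the radiated libraries. S100a8 was at 3038, 3263 and 2226 CPM and at 2196, 1941 and 2034 CPM. Non-radiated library 3 was far below the other non-radiated libraries for both and the nearest to radiated library 1. Their log2 fold changes of -0.50 and -0.47 were the most negative of the members, with SE of 0.14 for each and adjusted p by edgeR of 0.0627 and 0.0746. With the replicate block S100a9 was called (adjusted p 0.0323) and S100a8 was not (0.0539). Without the block edgeR called 0 of the 2, both with an unadjusted p under 0.05, and DESeq2 called 2.

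The 7 late genes had a median log2 fold change of -0.39, 4 of them called lower. Retnlg (ENSMUSG00000022651, chromosome 16, 48872608 to 48874498), a resistin-like gene of mature mouse neutrophils, was at 478, 441 and 436 CPM in the non-radiated libraries and 336, 360.0 and 290.3 CPM in the radiated libraries. It fell by 0.46 on the log2 scale (SE 0.08, adjusted p by edgeR 0.0111). Mcemp1 (ENSMUSG00000013974, chromosome 8, 3665762 to 3668905), a membrane protein gene of mast cells and neutrophils, was at 89.3, 99.4 and 87.8 CPM and at 71.1, 73.7 and 66.4 CPM. It fell by 0.39 (SE 0.07, adjusted p by edgeR 0.00771). Both were called in 14 of 15 alternatives, the exception again being library totals alone (adjusted p 0.673 and 0.745). All 6 eosinophil, mast cell and basophil markers were also called lower, and their part in the Mcemp1 values was not tested.

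Csf3r (ENSMUSG00000028859, chromosome 4, 126024550 to 126044440) encodes the receptor for the growth factor G-CSF. It was at 251, 272 and 284 CPM without and 203, 229 and 173 CPM with radiation, log2 fold change -0.41, SE 0.10, adjusted p by edgeR 0.0336. Fpr2 (ENSMUSG00000052270, chromosome 17, 17887824 to 17893952), a receptor for formylated bacterial peptides, was at 91.6, 84.5 and 80.2 CPM and at 70.2, 70.2 and 59.3 CPM. Its log2 fold change was -0.36 (SE 0.08, adjusted p by edgeR 0.0257). In both genes radiated library 3 was lowest. The Csf3r call was kept without radiated library 2 and lost when any other library was left out (adjusted p 0.0528 to 0.104). The Fpr2 call was lost when non-radiated library 1 (adjusted p 0.0906), non-radiated library 2 (0.0619) or radiated library 1 (0.0514) was left out.

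Its neighbour Fpr1, for the other formyl peptide receptor, was at 29.2, 33.0 and 26.2 CPM without and 24.4, 26.3 and 19.8 CPM with radiation. The log2 fold change of -0.32 (SE 0.12) was not called (adjusted p by edgeR 0.151), and was with the replicate block (0.0309). Padi4, for the enzyme that citrullinates histones during the release of extracellular traps, had a log2 fold change of -0.32 (SE 0.09, adjusted p by edgeR 0.0611) without overlap between groups. Stfa2l1, a stefin-like protease inhibitor gene, was at 9.07, 11.4 and 8.63 CPM and at 6.71, 8.18 and 6.18 CPM. Its log2 fold change was -0.46 (SE 0.15, adjusted p by edgeR 0.1004, and 0.0277 with the block), and its transcript resembles that of Stfa2, so its count is uncertain.

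**Figure D2:**
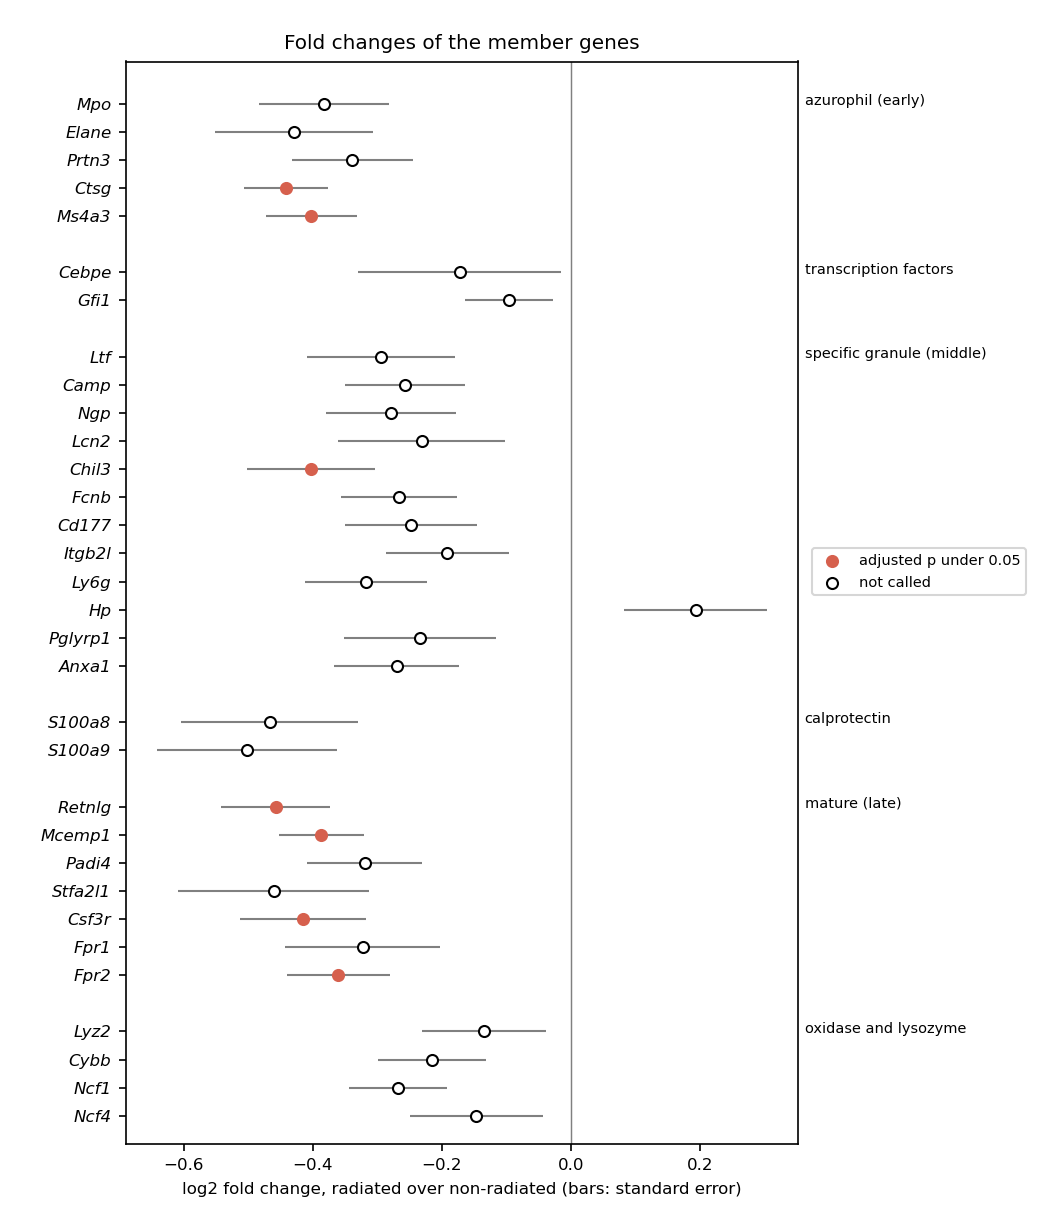
Log2 fold change of each member gene in radiated over non-radiated femur, with its standard error as a bar; filled points had an edgeR adjusted p under 0.05. All 7 filled points are negative, 31 of 32 points lie left of 0 with TMM scaling (26 of 32 under library totals alone), and Hp lies to the right.

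Genes of the NADPH oxidase, which makes superoxide in the phagosome, and lysozyme had the smallest differences beside the transcription factors, with a median log2 fold change of -0.18. Cybb, for the catalytic subunit, was at 649, 727 and 611 CPM in the non-radiated libraries and 607, 577.5 and 527.5 CPM in the radiated libraries (log2 fold change -0.22, SE 0.08, adjusted p by edgeR 0.173). Ncf1 and Ncf4 encode cytosolic subunits. Ncf1 had a log2 fold change of -0.27 (SE 0.08, adjusted p by edgeR 0.0645) without overlap, although it overlaps Gtf2ird2 in the table, and Ncf4 one of -0.15 (SE 0.10, adjusted p by edgeR 0.472). Lyz2, the lysozyme gene of neutrophils and macrophages, was at 1804, 1808 and 1626 CPM and at 1726, 1641 and 1404 CPM (log2 fold change -0.13, SE 0.10, adjusted p by edgeR 0.479). Lyz2 and Ncf4 were positive under library totals alone. Of these 4 genes edgeR called 0 and DESeq2 2, and 2 had an unadjusted p under 0.05 in edgeR. Macrophages express them too. The 6 macrophage markers, 5 of them called higher, summed to 496 to 558 CPM without and 662 to 779 CPM with radiation, and their part in these values was not tested.

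Early and late genes differed by less than the spread between libraries. The median log2 fold changes of the azurophil and the mature group were -0.40 and -0.39, a difference of -0.02, against a pooled SD of 0.13 for that difference between libraries of a group. Over the alternatives the difference lay between -0.04 and 0.09. Relative to the non-radiated mean, the azurophil median was -0.29, -0.39 and -0.45 and the mature median -0.37, -0.24 and -0.56 in radiated libraries 1, 2 and 3. Early minus late was therefore 0.08, -0.15 and 0.11 in the radiated libraries and -0.15, 0.01 and 0.05 in the non-radiated libraries, which overlap. Within pairs 1, 2 and 3 the early median log2 ratio was -0.10, -0.59 and -0.47 and the late one -0.33, -0.33 and -0.48. Early genes were thus less negative than late ones in pair 1, more negative in pair 2 and close in pair 3. The middle group lay nearer to 0 than the early and late groups, at -0.14, -0.23 and -0.45 in radiated libraries 1, 2 and 3. The gap to the late group was small in radiated library 2 (-0.227 against -0.240). So was the gap to the early group in radiated library 3 (-0.448 against -0.451). In radiated library 1 the middle group was close to its level in non-radiated library 1 (-0.139 against -0.128). Its median was -0.26 in the fit and remained less negative than those of the early and late groups in each of the 15 alternatives. That order was not tested. Summed over genes, the early group went from a mean of 1306 to 995 CPM and the late group from 1019 to 764 CPM.

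**Figure D3:**
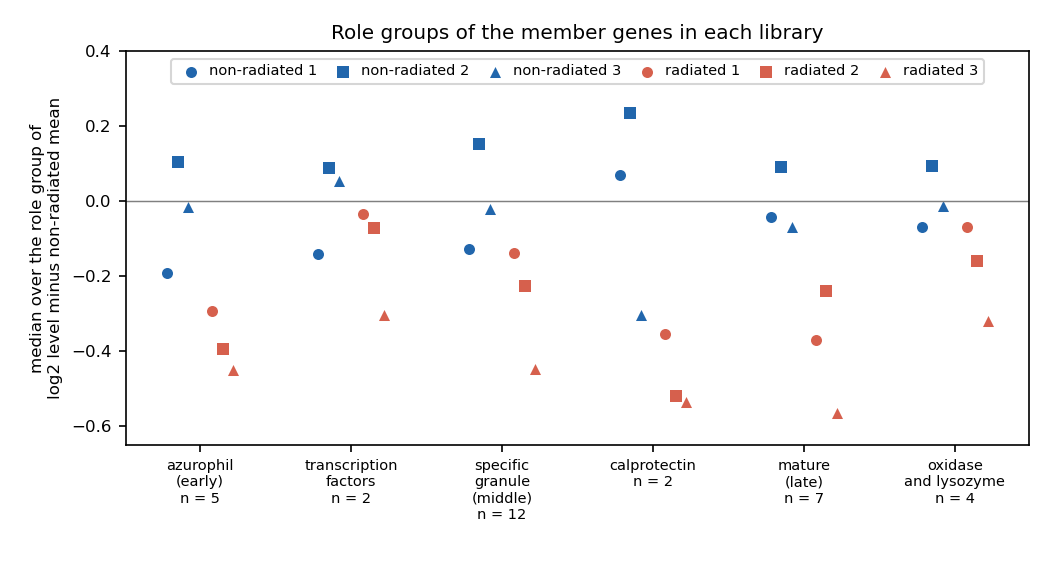
Each point is the median, over the genes of a role group, of the log2 level in 1 library minus the mean of the non-radiated libraries (blue non-radiated, red radiated, n = genes in the group). The red points of the early group lie at -0.45 to -0.29 and those of the late group at -0.56 to -0.24, below all blue points of their group. The red points of the transcription factors and of the oxidase and lysozyme group overlap the blue points.

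Other genes of neutrophil granules, oxidase, receptors, regulators and signals were taken from 6 lists of 52 genes, of which 48 passed the filter. Of these 48, 8 were called lower and 1 higher, with a median log2 fold change of -0.20, beside the 3.24% and 4.56% of all genes given above. Among 12 tested granule genes 4 were called lower. Olfm4 (ENSMUSG00000022026, chromosome 14, 80000302 to 80021930), the gene of a granule glycoprotein found in a subset of neutrophils, had a far more negative fold change than any member. It was at 72.1, 90.1 and 50.6 CPM in the non-radiated libraries and 29.8, 35.8 and 22.1 CPM in the radiated libraries, log2 fold change -1.27, SE 0.22, adjusted p by edgeR 0.00754. It was called in all 15 alternatives. Srgn, for the proteoglycan that holds granule proteins, Serpinb1a, an inhibitor of elastase and cathepsin G, and Wfdc21 had log2 changes of -0.35, -0.40 and -0.39 (adjusted p by edgeR 0.00916, 0.0327 and 0.0201). The Serpinb1a call was lost in 4 of 6 fits, each without 1 library (it stayed when the one left out was non-radiated 3 or radiated 1, and was otherwise at adjusted p 0.0631 to 0.0843), and the Wfdc21 call without non-radiated library 2 (0.0712).

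Ctsc (ENSMUSG00000030560, chromosome 7, 88278085 to 88310888) encodes cathepsin C, the protease that activates elastase, proteinase 3 and cathepsin G. It was at 106, 95.4 and 92.5 CPM in the non-radiated libraries and 129, 111 and 121 CPM in the radiated libraries. It rose by 0.30 on the log2 scale (SE 0.07, adjusted p by edgeR 0.0363), while its substrates' genes had negative fold changes. The call ended without non-radiated library 2, non-radiated library 3, radiated library 1 or radiated library 3 (adjusted p 0.0767 to 0.147). Cathepsin C is also a macrophage enzyme, and the part of the macrophage markers given above was not tested.

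Of 17 other receptors of mature neutrophils 3 were called lower. Cxcr2, the chemokine receptor that draws neutrophils out of the marrow, was at 96.0, 98.4 and 105 CPM without and 75.0, 89.7 and 69.8 CPM with radiation (log2 fold change -0.35, SE 0.09, adjusted p by edgeR 0.0439). Clec4d and Trem1, pattern recognition and activating receptors, had log2 fold changes of -0.44 and -0.31 (adjusted p by edgeR 0.0177 and 0.0344). With the replicate block Trem1 was not called (adjusted p 0.0523). When libraries were left out in turn, Cxcr2 stayed called in 1 of 6 fits (without radiated library 2), Trem1 in 1 (without non-radiated library 1) and Clec4d in 4, being lost without non-radiated library 1 or radiated library 1.

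None of 3 other oxidase genes was called by edgeR or DESeq2, and 0 had an unadjusted p under 0.05 in edgeR. Hvcn1, the proton channel gene, had a log2 fold change of 0.14 (adjusted p by edgeR 0.289). Rac2, for the small GTPase that helps to switch the oxidase on, had one of -0.03 (adjusted p by edgeR 0.890), which was positive under library totals alone and without non-radiated library 3 or radiated library 3. None of 3 other stefin genes was called by either tool, with 2 at an unadjusted p under 0.05: Stfa2 (log2 fold change -0.86, adjusted p by edgeR 0.111) and Stfa3 (-0.57, 0.201), both at or under 2.47 CPM in every library. Among 6 other transcription factors edgeR and DESeq2 called 0, and 2 had an unadjusted p under 0.05. Cebpa, which starts the granulocyte programme, was at 31.4, 32.4 and 34.4 CPM in the non-radiated libraries and 36.7, 38.5 and 38.8 CPM in the radiated libraries (log2 fold change 0.22, SE 0.06, adjusted p by edgeR 0.0805). Cebpd had a log2 fold change of -0.32 (adjusted p by edgeR 0.194).

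Of 10 genes for signals of neutrophil production and release 7 were tested and 1 was called. Cxcl5, a chemokine that attracts neutrophils through Cxcr2, was at 3.40, 3.19 and 3.61 CPM in the non-radiated libraries and 1.64, 1.37 and 1.52 CPM in the radiated libraries. It fell by 1.18 on the log2 scale (SE 0.15, adjusted p by edgeR 0.00201) and was called in all 15 alternatives. Csf3, the gene of G-CSF, had 0, 1 and 0 counts in the non-radiated and 0, 3 and 1 counts in the radiated libraries, too few to detect any difference. Cxcl12, the chemokine that retains neutrophils in marrow, was named after its values were seen, as was Csf3. It was at 1006, 1050 and 1046 CPM without and 884, 888 and 779 CPM with radiation, with no overlap, and its log2 fold change of -0.28 (SE 0.07) had an adjusted p by edgeR of 0.0515. It was called in 6 of 15 alternatives, DESeq2's test among them (adjusted p 0.000406), and in 0 of the 6 that left out a library.

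The neutrophil genes were next set beside markers of the other cells of bone and marrow. Their median of -0.31 lay between those of lists that were lower and lists that were higher in radiated femur. All 6 markers of eosinophils, mast cells and basophils, the other granulocytes, were called lower, with a median log2 fold change of -0.58. Of 5 progenitor markers 3 were called lower (median -0.40), and of 6 megakaryocyte markers 6 (median -1.41). Of 6 monocyte markers 3 had negative and 3 positive log2 fold changes (median 0.005), and DESeq2 called 3, of which 1 was higher. By edgeR 1 was called, F13a1 (-0.32, adjusted p by edgeR 0.0405). That call was kept without non-radiated library 3 and lost when any other library was left out (adjusted p 0.0507 to 0.131). Osteoblast markers, whose summed levels are given above, had a median of -0.45, and 5 of 6 were negative. Of these 1 was called by edgeR, Col1a1 (-0.61, adjusted p by edgeR 0.0470), and 3 by DESeq2 and 3 with the replicate block. Col1a1, for type I collagen, stayed called without non-radiated library 2, and leaving out any other library ended the call (adjusted p 0.0786 to 0.150). All 8 B cell markers were called higher (median 0.80), with summed levels of 436 to 473 CPM in non-radiated and 702 to 846 CPM in radiated libraries. Skeletal muscle markers had a median of 2.28 with 0 of 8 called by edgeR or DESeq2, although all 8 had an unadjusted p under 0.05 and 7 were called higher with the replicate block. With the muscle level as a covariate the members' median was -0.42, with 13 called, against 2.46% of all genes called lower. The muscle level went partly with the group, so this fit cannot separate muscle content from radiation. Of 5 T and NK cell and 6 erythroid markers edgeR called 0 each (medians 0.10 and 0.04), with 2 of each at an unadjusted p under 0.05, and DESeq2 called 0 and 2. The part of the B cell and muscle levels in the members' values was not tested. No marker of these lists was at 0 in all libraries.

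**Figure D4:**
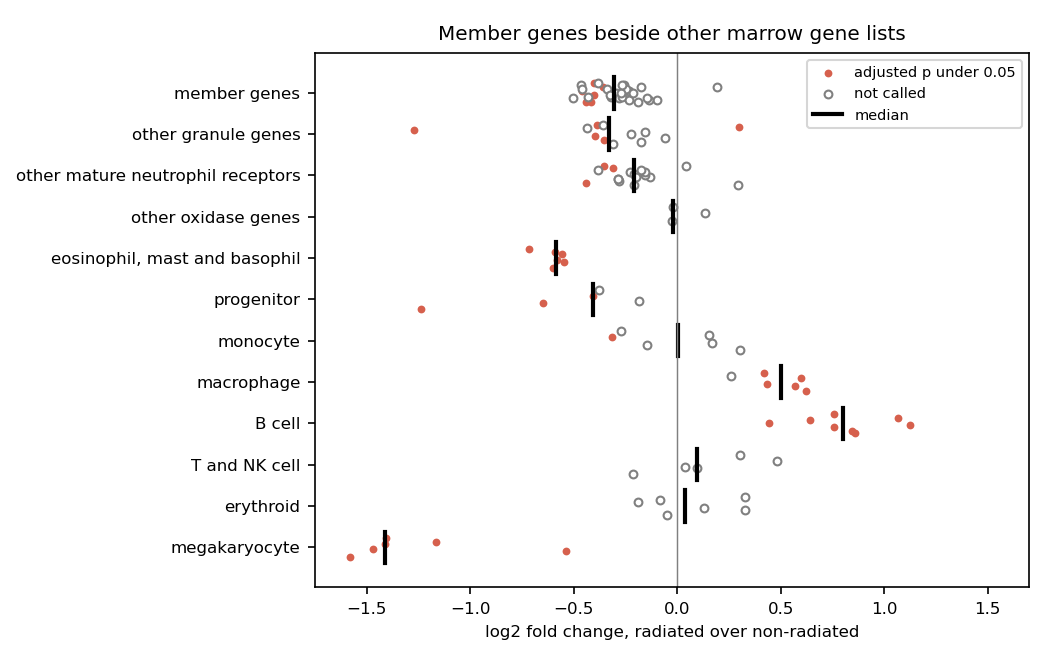
Log2 fold changes in radiated over non-radiated femur for the 32 member genes and for other lists of marrow genes; each point is a gene, filled where the edgeR adjusted p was under 0.05, and the black bar is the list's median. The members centre on -0.31, the eosinophil, mast cell and basophil markers on -0.58 and the B cell markers on 0.80 with TMM scaling.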

How the data were processed

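Gene counts of 6 libraries were analysed. The raw counts and RPKM values were deposited by the authors, each library with its own column (per the file headers), and the counts are whole numbers. The submitters' processing notes name STAR 2.5.2b, Subread, featureCounts and build mm10; the annotation and the use of strand are not given in the sources used here. The deposited RPKM values were not used for any result, and levels per length are CPM divided by the table's gene length. The whole table of counts was fitted in R 4.3.3 with edgeR 4.0.16: filterByExpr (minimum count 10, minimum total 15), TMM, glmQLFit and glmQLFTest with the group as the only term, and Benjamini-Hochberg adjustment over all genes tested. CPM are TMM-scaled, so fold changes are relative to the bulk of genes. The standard error is the size of the log2 fold change divided by the square root of F. Library medians were taken from log2(CPM + 0.1). The fit was tested on simulated data.

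The members, role groups and lists were chosen with earlier results of these data known. One list gene is not reported here. Another, Adgre1, was matched by its gene ID. All members were to be named, and of each pathway list the called genes or, with none, the 2 with the smallest p. Csf3, Cxcl12, Col1a1 and F13a1 were named outside this rule, after their values were seen. Replicates differed beyond counting noise (chi-square over degrees of freedom at least 17.9 for every pair within a group). Deviations from the group mean correlated at 0.186, 0.349 and 0.204 for the same number across groups and at 0.0203 or less for different numbers. Deviations within a group cancel out for each gene, so higher values for the same number partly force lower ones for different numbers. By this check over genes, which are not independent, the numbers were taken to pair the libraries. The main fit has no term for this pairing, which enters the tests only through the replicate block among the alternatives. Of the members, 6 overlap another gene of the table (Mpo, Prtn3, Gfi1, Itgb2l, Fpr2 and Ncf1). By BLAST against GENCODE M21 transcripts, 6 (Chil3, Cd177, Stfa2l1, Csf3r, Fpr2 and Lyz2) match another gene over 300 bases or more with at least 90% identity. The counts of both kinds are uncertain to that extent. As alternatives, scaling used edgeR's relative log expression (RLE) factors, library totals alone, or totals without AY036118 and Gm26917. The filter was dropped or set to a mean of 1 CPM, the test was DESeq2's or limma-voom's (limma 3.58.1), the replicate block or a muscle covariate was added, and each library was left out.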

Additional observations from a re-analysis of the deposited data

How the results depend on the processing

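The count of called members moved most. It was 0 under library totals alone (0 members at an unadjusted p under 0.05, with 0.778% of all genes called lower), 16 with no filter (2.71%), 24 with DESeq2's Wald test (4.55%), 13 with the replicate block (3.39%) and 13 with the muscle covariate (2.46%). Leaving out 1 library at a time gave 4 to 8 called members, with 1.71% to 3.17% of all genes called lower. The 7 members called in the fit were all among those called with no filter, with DESeq2's test, with limma-voom, with the block and with the muscle covariate. Under library totals alone, which let AY036118 enter the scaling, all genes had a median of 0.19 (log2) and the members one of -0.10, or -0.29 relative to all genes. In the fits that left out a library the members' median ran from -0.36 to -0.22 and early minus late from -0.04 to 0.04. The difference in the members' share of counts, -0.184 percentage points, was -0.496 without AY036118 and Gm26917 in the total, and ran from -0.324 to -0.0546 over the left-out libraries. Of 50 genes named with a test 44 kept their direction in every alternative run. The other 6 turned positive under library totals alone: Cebpe at 0.0327, Gfi1 at 0.10, Itgb2l at 0.0135, Lyz2 at 0.0612, Ncf4 at 0.0617 and Rac2 at 0.17. Rac2 was also positive with totals without AY036118 and Gm26917 (0.00433), and ran from -0.0818 to 0.0360 over the left-out libraries. Of the called genes named from the members and pathway lists, Olfm4 and Cxcl5 were still called under library totals alone. The muscle covariate ended the calls of Serpinb1a, Wfdc21, Ctsc, Trem1, F13a1 and Col1a1, and totals without AY036118 and Gm26917 those of Trem1, F13a1 and Col1a1. The replicate block ended 1 call of a named gene, that of Trem1, and the calls it added among the members are given beside them.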
